A study of Mus musculus with 13 samples.

Results

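The epidermal growth factor (EGF) ligands and their ErbB receptors were examined in mouse endothelial cells (ECs) with and without Apelin, the peptide ligand of the Apelin receptor that is encoded by Apln. The 10 genes, Ereg, Areg, Hbegf, Btc, Tgfa, Epgn, Egf, Egfr, Erbb2 and Erbb3, were taken by symbol from 24984 genes listed for tumor ECs and 24421 listed for sprout ECs, and all 10 were listed in both. The set was chosen from measured values of the tumor libraries, since Ereg was lower in the Apelin-depleted ones and Egfr and Erbb2 are regulators that the study inferred from its gene expression data. The tumor values of the 10 genes are therefore given as a description without a test, whereas the rule did not use the sprout values, which were tested, although earlier results of both sets were known when the genes were chosen.

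The tumor ECs were sorted as CD31+/CD105+ cells, with CD45+ blood cells gated out, from mammary tumors grown by E0771, a mouse breast cancer cell line, in C57BL/6J mice, and 100 cells per library were sequenced by Smart-Seq2. The 3 Apelin-depleted libraries came from Apln-/- mice carrying tumor cells with an shRNA against Apln, and the 6 wild-type libraries came from wild-type mice carrying tumor cells with an shRNA against Renilla luciferase. The host gene and the tumor cell gene were thus lost together and their effects cannot be told apart. The sprout ECs were sorted as CD31+ cells from vessels that sprouted out of embryoid bodies in collagen gel under VEGF (30 ng/ml). The embryoid bodies were made from haploid-derived mouse embryonic stem cells on a C57BL/6x129 background that carry a gene trap in Apln. In the design, the 2 libraries labelled sense carry the trap in the direction that stops transcription (STOP) and received DMSO. The 2 libraries labelled antisense carry the trap turned by Cre, which restores the gene (GO), and received Apelin (1000 nM). The labels give only the direction of the trap. The protocol deposited with all 4 libraries names Apelin or DMSO without saying which library received which, so the treatment of each group comes from the study's legend. The Apln level given with the library totals goes against the labels, so the state of Apln in these libraries is in doubt. The trap, the Cre virus and the added peptide therefore differ together in the sprouts and cannot be told apart, and each direction is given by the library label. The study's legend gives as many replicates of each tumor group as there are libraries, but the labels name no animals or cultures, so the p-values measure the spread between these libraries, which may be technical.

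EGF family ligands are made as membrane-anchored precursors that ADAM proteases cut loose, and the freed domain binds ErbB receptors, which pair and switch on their tyrosine kinases. EGF, TGF-α, amphiregulin (Areg) and epigen (Epgn) bind EGFR, and HB-EGF (Hbegf), betacellulin (Btc) and epiregulin (Ereg) bind both EGFR and ErbB4. ErbB2 has no known ligand of its own and serves as the partner of the others, and ErbB3, which has little kinase activity, is bound by neuregulins. In blood vessels, EGFR ligands are known as signals between tumor cells, macrophages and ECs.

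Library totals ran from 4661044 to 14455093 counts in tumor ECs and from 12327030 to 16804071 counts in sprout ECs. A count of 3, taken as the detection floor, was worth 0.211 to 0.593 CPM (counts scaled to library size) in the tumor libraries and 0.177 to 0.244 CPM in the sprout libraries. Apln was at 7.64 ± 4.84 CPM (SD, n = 3) in Apelin-depleted and 794 ± 266 CPM (SD, n = 6) in wild-type tumor ECs. In sprout ECs Apln was not lower in the sense libraries, at 66.0 and 80.1 CPM, than in the antisense libraries, at 58.1 and 65.9 CPM (log2 fold change 0.24, SE 0.16, edgeR adjusted p = 0.367). The sorting markers Pecam1 (CD31) and Eng (CD105) were at 1544 ± 280 and 2536 ± 594 CPM in the depleted tumor ECs (SD, n = 3). They were at 1434 ± 251 and 1772 ± 457 CPM in the wild-type tumor ECs (SD, n = 6). In the sprouts Pecam1 was at 154 ± 21.6 CPM in sense and 268 ± 6.29 CPM in antisense libraries, and Eng was at 78.6 ± 2.67 and 164 ± 14.2 CPM (SD, n = 2 each). In each set a fold change of a whole library cannot tell fewer cells of a type from less RNA per cell.

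Of the ligands, 4 sit side by side in the genome. In the RefSeq annotation of GRCm38.p6, the mm10 build, Epgn (chr5:91027517-91035212, plus strand), Ereg (chr5:91074617-91093649, plus strand), Areg (chr5:91139599-91148432, plus strand) and Btc (chr5:91357261-91402994, minus strand) span 375 kb. They are all 4 of the protein-coding genes among the 7 genes annotated there. The gaps between neighbors were 39.4 kb from Epgn to Ereg, 46.0 kb from Ereg to Areg and 209 kb from Areg to Btc. The bases just upstream of Areg and Btc are printed because both genes, like Ereg between Epgn and Areg, had lower mean levels in the Apelin-depleted tumor ECs. Each line gives the 250 bases before the annotated start, read toward the gene, from the RefSeq promoter table of GRCm38.p6, for chr5:91139349-91139598 on the plus strand (Areg) and chr5:91402995-91403244 on the minus strand (Btc), and capitals mark the matched motifs.
Areg: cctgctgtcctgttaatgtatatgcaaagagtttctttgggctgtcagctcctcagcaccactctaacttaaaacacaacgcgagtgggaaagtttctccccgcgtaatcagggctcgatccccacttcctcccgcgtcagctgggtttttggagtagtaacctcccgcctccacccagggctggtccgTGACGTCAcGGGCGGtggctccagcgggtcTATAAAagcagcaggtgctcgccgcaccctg
Btc: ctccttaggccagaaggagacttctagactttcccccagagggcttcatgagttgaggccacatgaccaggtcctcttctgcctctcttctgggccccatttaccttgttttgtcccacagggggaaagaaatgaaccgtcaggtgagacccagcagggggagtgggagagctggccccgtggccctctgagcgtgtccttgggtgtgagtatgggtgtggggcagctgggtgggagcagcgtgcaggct
The letters searched were those of the cAMP response element (CRE, TGACGTCA), the AP-1 site (TGANTCA) and the GC box (GGGCGG) on both strands, and the TATA box (TATAAA) on the strand of the gene. Areg holds the CRE 61 bases, the GC box 52 bases and the TATA box 31 bases before its start, and no AP-1 match. Btc holds none of the 4 motifs. Among 32851 promoter windows of this length, 1.55% hold the CRE, 6.75% the AP-1 site, 32.7% the GC box and 7.59% the TATA box. Of the 10 genes, matched by symbol, 7 were searched. Ereg and Erbb3 had no entry in the promoter table, and Hbegf was left out of the search. Of the others that were searched, Epgn has a TATA box match 86 bases before its start, Egfr has a GC box match at 9 bases and Tgfa has GC box matches 126 and 15 bases before the start used in the promoter table, which lies inside the annotated gene, while Erbb2 and both Egf windows hold none of the 4. A match is a description of letters and not of a bound site.

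In tumor ECs, epiregulin was the only one of the 10 genes whose fitted fold change belonged to libraries that did not overlap between the groups, and it was lower in Apelin-depleted ECs. Amphiregulin and betacellulin had the same sign with overlapping libraries, Hbegf and Tgfa had the opposite sign, and the receptors Egfr and Erbb2 varied more within the groups than between them. Ereg was at 1.18, 0.702 and 0 CPM in the 3 Apelin-depleted libraries, from 7, 10 and 0 reads. In the wild-type libraries it was at 2.00, 14.9, 31.4, 17.0, 22.9 and 20.7 CPM. The lowest wild-type library, replicate 1, with 11 reads, lay close above the highest depleted library, and the other 5 lay far above it. The means were 0.629 ± 0.595 CPM (SD, n = 3) and 18.2 ± 9.75 CPM (SD, n = 6), with a fitted log2 fold change of -4.85 (SE 1.17).

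Areg, the neighbor of Ereg, was at 2.71, 0.211 and 1.58 CPM in the depleted libraries. Its wild-type values ran from 2.12 CPM in replicate 6 to 42.7 CPM in replicate 4, with a median of 7.02 CPM, so that wild-type replicate 6 fell inside the depleted range and replicate 2, at 2.72 CPM, just above it. The log2 fold change was -3.14 (SE 1.22), and it was -2.27 without wild-type replicate 4 and -3.89 without depleted replicate 1. Btc was seen in 1 of the 3 depleted libraries, with 7 reads in replicate 2 (0.491 CPM). In the wild-type libraries Btc ranged from 0 CPM in replicate 6 to 7.98 CPM in replicate 5, and the groups overlapped. Its log2 fold change of -3.86 had an SE of 2.05, and without depleted replicate 2, which leaves depleted libraries at 0 alone, the fit gave -7.38, a value set by the prior count. Epgn was seen only in wild-type replicate 1, with 2 reads, and lies below the floor in all 9 libraries.

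Hbegf was the most abundant ligand per length in each tumor library. It was at 413, 254 and 722 CPM in the depleted libraries and between 154 and 404 CPM in the wild-type libraries (median 228 CPM). The highest wild-type library, replicate 5, nearly reached depleted replicate 1 and exceeded depleted replicate 2, and the log2 fold change was 0.91 (SE 0.35). Tgfa, which encodes TGF-α, was at 14.9, 22.7 and 7.54 CPM in the depleted and between 0.141 and 15.2 CPM in the wild-type libraries (median 5.02 CPM), and the groups overlapped (log2 fold change 1.16, SE 1.04). Egf itself was low, with 1 read in the depleted and 0 to 16 reads in the wild-type libraries.

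Measured as CPM per kilobase of transcript, Hbegf made up 94.8 to 99.0% of the summed ligands in depleted tumor ECs and 63.3 to 94.8% in wild-type tumor ECs. The wild-type libraries with the smallest Hbegf share were replicate 4 (63.3%) and replicate 3 (70.7%), the 2 libraries with the most Areg. The summed ligands came to between 113 and 307 CPM per kb in depleted and between 91.6 and 184 CPM per kb in wild-type libraries, against summed receptors of 2.13 to 3.87 and 1.21 to 9.29 CPM per kb. In each tumor library, then, ligand transcripts outnumbered transcripts of the 3 receptors per length, most of them Hbegf.

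**Figure D1:**
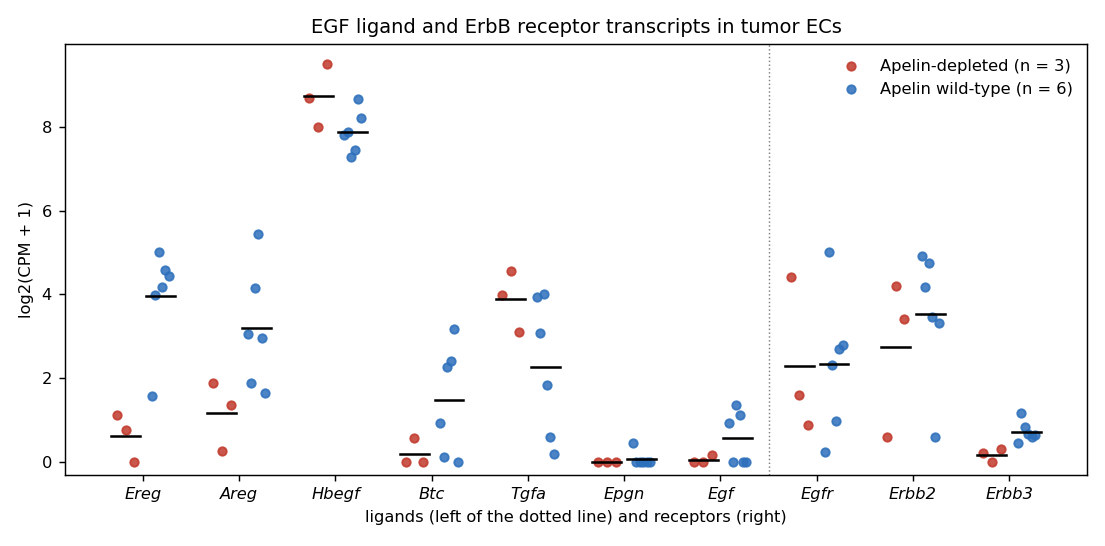
Expression of the 10 genes in tumor ECs, as log2(CPM + 1), for 3 Apelin-depleted (red) and 6 wild-type (blue) libraries. Each point is a library, the black bar is the mean of the log values and the dotted line parts ligands from receptors; Ereg is the ligand whose red points, at most 1.18 CPM, all lie below the blue points, which start at 2.00 CPM.

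Among the receptors, Egfr, the shared receptor of these ligands, was at 20.3, 2.04 and 0.851 CPM in the depleted libraries. In the wild-type libraries it ranged from 0.182 CPM in replicate 1 to 31.5 CPM in replicate 2, with a median of 4.78 CPM. The highest and the lowest Egfr values were both wild-type libraries, and the log2 fold change was -0.07 (SE 1.26). The sign of this value rested on single libraries: it was -2.46 without depleted replicate 1 and 1.2 without wild-type replicate 2. Erbb2, the ligandless partner, was at 0.507, 17.5 and 9.61 CPM in the depleted and between 0.520 and 29.3 CPM in the wild-type libraries (median 13.6 CPM). Its groups overlapped over nearly the whole range, with a log2 fold change of -0.73 (SE 1.01). This value was -0.17 without depleted replicate 1 and -1.59 without depleted replicate 2. Erbb3, the neuregulin receptor, had 0 to 2 reads in the depleted and 2 to 13 reads in the wild-type libraries, too few to enter the fit. Per length the leading receptor was Erbb2 in 2 of 3 depleted and 4 of 6 wild-type libraries, and Egfr in the rest.

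Transcripts of other cell types varied between the tumor libraries that stood out, and the gene named for a marker list is the one with the highest mean over all libraries of the set. Wild-type replicate 2, the library highest in Egfr, held 6188 CPM of 10 summed fibroblast markers, led by Dcn, against 69.4 to 285 CPM in the other wild-type libraries and 46.1 to 327 CPM in the depleted libraries. Depleted replicate 1, the highest depleted library in Egfr and Areg, held 1236 CPM of 12 macrophage and monocyte markers, led by Lyz2, against 55.0 and 98.9 CPM in the other depleted libraries, and it held 224 CPM of epithelial or carcinoma markers, against 22.7 and 23.7 CPM there and 15.1 to 67.5 CPM in the wild-type libraries. Krt8, the gene named for that list, had a mean of 18.2 CPM in the depleted and 33.6 CPM in the wild-type libraries, so most of the 224 CPM came from other genes of the list. Wild-type replicate 4, the highest in Areg, held 691 CPM of the macrophage and monocyte markers, above the 78.0 to 212 CPM of the other wild-type libraries. The 12 endothelial markers, led by Eng, summed to 10938, 12722 and 13918 CPM in the depleted and to between 7394 and 11369 CPM in the wild-type libraries. Of the markers that entered the fit, 9 of 10 mural cell genes (median log2 fold change -1.34) and 7 of 8 fibroblast genes (median -4.77) had a negative fold change, where 51.9% of all genes did. Both of the 2 granulocyte and mast cell genes had a negative one too, while all 12 endothelial genes had a positive one (median 0.36). DESeq2 called 2 granulocyte and mast cell, 1 fibroblast, 1 mural cell and 1 pluripotent cell marker lower. Neither edgeR nor limma voom called any gene of these lists. The fibroblast sums of the wild-type libraries other than replicate 2 lie within the depleted range. Mural cell markers, led by Kcnj8, lay between 80.8 and 102 CPM in the depleted and between 94.2 and 478 CPM in the wild-type libraries. The sort gated out CD45+ cells, to which macrophages, lymphocytes and granulocytes belong. Lymphocyte markers, led by Nkg7, reached 103 CPM in depleted replicate 3 and at most 9.09 CPM in the wild-type libraries, and granulocyte and mast cell markers at most 7.66 and 23.9 CPM, with S100a8 at 0 in the depleted libraries and at a mean of 6.42 CPM in the wild-type libraries. Pluripotent cell markers, led by Dppa4, lay between 0.913 and 3.04 CPM in the depleted and between 7.57 and 23.7 CPM in the wild-type libraries. These sums do not overlap, as for Ereg, and 1.28% of all genes fitted were lower in the depleted ECs without overlap. Only 1 of the 10 pluripotent cell markers entered the fit. Dppa4 alone had a mean of 1.10 CPM in the depleted and 9.37 CPM in the wild-type libraries, and Dppa5a was at 0 in each tumor library. The part of the other cell types in the values of the ligands and receptors was not tested.

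**Figure D2:**
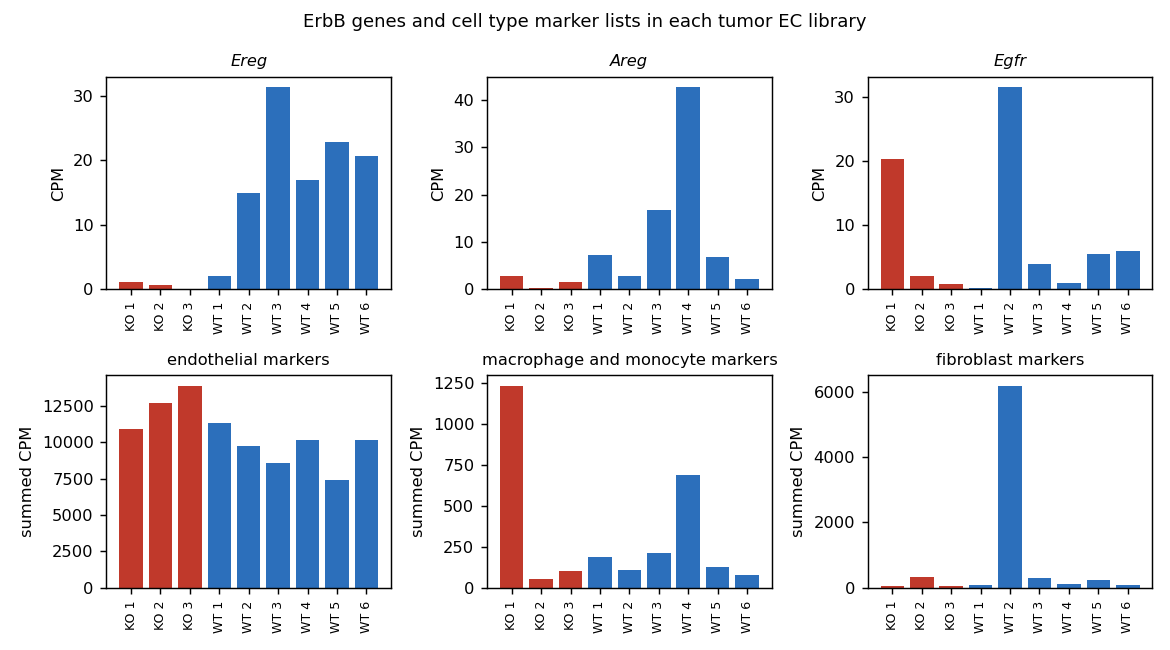
Ereg, Areg and Egfr (CPM) and the summed CPM of endothelial, macrophage and monocyte, and fibroblast markers in each tumor library, with 3 Apelin-depleted (KO, red) and 6 wild-type (WT, blue) libraries as bars that start at 0. WT 2 carries both the highest Egfr, 31.5 CPM, and the highest fibroblast sum, 6188 CPM; WT 4 carries the highest Areg, 42.7 CPM.

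Of the 10 genes, 7 had enough reads to enter the fit of 13073 tumor genes, and 5 of these had a negative and 2 a positive log2 fold change, with a median of -0.73 against -0.03 over all genes fitted. Of all genes fitted, 0.00765%, Apln alone, passed an adjusted p of 0.05 with an absolute log2 fold change of 1 in edgeR. Of the 7 fitted genes, Ereg was the 1 whose libraries did not overlap, where 1.28% of all genes fitted lay lower in the depleted ECs without overlap. Erbb3, which was not fitted, did not overlap either, at 0 to 0.243 CPM in the depleted and 0.364 to 1.26 CPM in the wild-type libraries. The highest depleted and the lowest wild-type library had 2 reads each. Since the tumor contrast served to choose the genes, nothing is read from these counts.

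The genes whose pattern over the 9 tumor libraries was most like that of Ereg, by Pearson's r of log2(CPM + 1), were Lgals1 (galectin-1, r = 0.97), Ptgr1 (prostaglandin reductase, r = 0.97), Phgdh (the first enzyme of serine synthesis, r = 0.96), Bag2 (an Hsp70 co-chaperone, r = 0.95) and Tex11 (a protein of meiosis, r = 0.95). Spearman's rho lay between 0.800 and 0.983 for these 5 genes. Without the 2 libraries farthest from the Ereg median, r lay between 0.909 for Bag2 and 0.956 for Lgals1. Lgals1 had a mean of 353 CPM in depleted and 1002 CPM in wild-type libraries, and Phgdh a mean of 6.47 and 29.8 CPM. All of these points share the same libraries and the same 2 groups, so these correlations describe the libraries only. Of the other EGF family genes, Areg had an r of 0.59 with Ereg and Btc of 0.59, whereas Hbegf had -0.57 and Tgfa -0.58. Egfr was at 0.29 and Erbb2 at 0.01. Without the 2 farthest libraries these values moved to 0.46 for Areg, 0.44 for Btc, -0.09 for Hbegf, -0.89 for Tgfa, 0.18 for Egfr and -0.14 for Erbb2. Their sizes thus moved with those libraries, and in their order only Hbegf and Erbb2 changed places.

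In sprout ECs, whose values the rule did not use, Erbb3 was higher in the sense than in the antisense libraries past both thresholds. Hbegf was lower in sense past the adjusted p threshold alone, short of the fold-change threshold. The other 5 genes that entered the fit did not pass the adjusted p threshold, and Ereg itself was hardly expressed in either group. Erbb3 (chr10:128567523-128589635, minus strand) was at 86.9 and 76.3 CPM in the sense and at 30.9 and 42.5 CPM in the antisense libraries. Both sense libraries lay above both antisense libraries, with means of 81.6 ± 7.50 and 36.7 ± 8.21 CPM (SD, n = 2 each). The log2 fold change was 1.16 (SE 0.19, edgeR quasi-likelihood test with Benjamini-Hochberg adjustment, adjusted p = 0.0167). The TPM of the authors' RSEM run gave 29.5 and 25.1 in sense and 12.2 and 15.0 in antisense libraries. With 1 library left out the log2 fold change stayed between 0.94 and 1.41, in fits that take their spread from the group with 2 libraries alone. With a block by replicate number the log2 fold change was 1.17, but the edgeR adjusted p was 0.0864 and Erbb3 was no longer called. Same-numbered sprout libraries did not deviate together (correlation -0.377), so this block does not pair the samples.

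Hbegf was at 12.6 and 14.0 CPM in the sense and at 26.8 and 23.6 CPM in the antisense libraries. The groups did not overlap, and the log2 fold change was -0.92 (SE 0.21, edgeR adjusted p = 0.0410), short of the fold-change threshold. With 1 library left out the log2 fold change lay between -1.01 and -0.83, in fits that take their spread from the group with 2 libraries alone. Hbegf no longer passed the adjusted p threshold with a block by replicate number, which does not pair the samples (edgeR adjusted p = 0.153). The same held with RSEM's expected counts in place of the HTSeq counts (edgeR adjusted p = 0.0531).

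The remaining ligands were low. Tgfa was at 5.35 and 3.42 CPM in sense and 8.25 and 6.37 CPM in antisense libraries, with no overlap (log2 fold change -0.74, SE 0.35, edgeR adjusted p = 0.224). Areg was at 1.02 and 0.163 CPM in sense and 4.71 and 0.887 CPM in antisense libraries. Sense replicate 1 lay above antisense replicate 2, and the log2 fold change was -2.21 (SE 1.05, edgeR adjusted p = 0.247). It shrank to -0.54 without antisense replicate 1 and grew to -4.05 without sense replicate 1. Ereg had 0 and 1 read in the sense and 17 and 2 reads in the antisense libraries, so that antisense replicate 1 alone, at 1.00 CPM, was above the floor. Antisense replicate 1 was also the sprout library highest in Areg, Hbegf, Tgfa, Egfr and Erbb2. Egf was at 1.35 and 0.407 CPM in sense and 0.766 and 0.806 CPM in antisense libraries (log2 fold change 0.19, SE 0.67, edgeR adjusted p = 0.879). Btc had at most 2 reads and Epgn at most 1 read in any sprout library.

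Of the other receptors, Erbb2 was at 22.5 and 30.1 CPM in sense and 41.1 and 32.7 CPM in antisense libraries. The groups did not overlap but lay close, and the difference did not pass the test (log2 fold change -0.49, SE 0.21, edgeR adjusted p = 0.179). Egfr was at 5.89 and 8.63 CPM in sense and 14.9 and 8.14 CPM in antisense libraries, which overlap (log2 fold change -0.67, SE 0.36, edgeR adjusted p = 0.273).

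**Figure D3:**
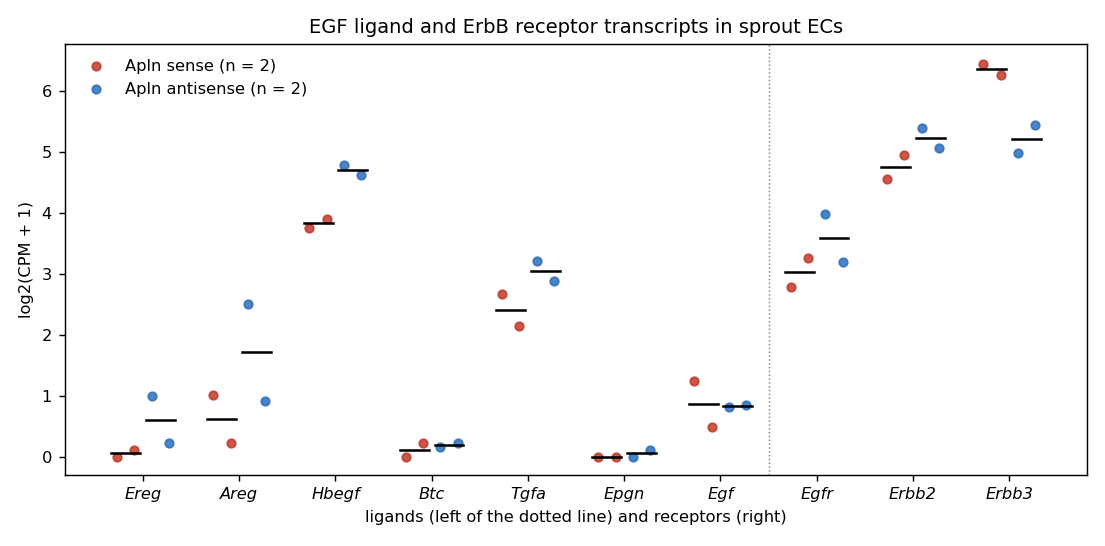
Expression of the 10 genes in sprout ECs, as log2(CPM + 1), for 2 sense (red) and 2 antisense (blue) libraries. Each point is a library, the black bar is the mean of the log values and the dotted line parts ligands from receptors; Erbb3 is the receptor whose group means lie farthest apart, with sense at 76.3 and 86.9 CPM above antisense at 30.9 and 42.5 CPM.

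Per length, the balance of receptors in the sprout libraries differed between the labels, and these shares were not tested. Erbb3 made up 79.6 and 71.5% of the 3 receptors in the sense libraries and 41.5 and 57.0% in the antisense libraries. Erbb2 made up 16.6 and 22.7% in sense and 44.4 and 35.3% in antisense libraries. Erbb3 led in both sense libraries and in antisense replicate 2, and Erbb2 led in antisense replicate 1. The summed receptors came to 27.2 and 26.5 CPM per kb in sense and to 18.5 and 18.6 CPM per kb in antisense libraries. The summed ligands came to 7.69 and 7.0 CPM per kb in sense and to 17.6 and 12.5 CPM per kb in antisense libraries, with Hbegf at 68.9 and 84.2% in sense and 64.0 and 79.5% in antisense libraries. In each sprout library the 3 receptors together thus stood above the 7 ligands per length, while in each tumor library the ligands stood above the receptors. The tumor and sprout counts come from different protocols and separate tables, and this difference was not tested.

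Of the 10 genes, 7 entered the fit of 14557 sprout genes. Past both thresholds there was 1 higher in the sense libraries (Erbb3), where 0.852% of all genes were higher, and 0 lower, where 3.03% of all genes were lower. With the adjusted p threshold alone, 1 was higher (1.92% of all genes) and 1, Hbegf, was lower (4.3% of all genes). Without adjustment, 1 was higher (12.4% of all genes) and 2 were lower (14.3% of all genes) at p under 0.05, and DESeq2 called Erbb3 alone past both thresholds. Of the 4 fitted genes whose libraries did not overlap, 3 were lower in sense (Hbegf, Tgfa and Erbb2), where 29.6% of all genes were lower without overlap. Erbb3 was the 1 that was higher, where 31.1% were. Ereg, which was not fitted, did not overlap either, at 0 to 1 read in sense and 2 to 17 reads in antisense libraries. With 2 libraries against 2, lack of overlap is common, and 5 of 7 negative fold changes and a median of -0.67 stood beside 49.5% negative and a median of 0.01 over all genes.

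Endothelial and pluripotent cell markers differed between the same labels in the sprouts. Of 12 endothelial markers, led by Cdh5, 11 were called lower in the sense libraries, and their sums were 660 and 872 CPM in sense against 2643 and 2419 CPM in antisense libraries. All 10 pluripotent cell markers were higher in sense, 2 of them called (Dppa5a and Fgf4), and their sums were 5859 and 5677 CPM in sense against 2197 and 3680 CPM in antisense libraries. Epithelial or carcinoma markers, led by Cdh1, summed to 1351 and 987 CPM in sense and 809 and 761 CPM in antisense libraries, with 0 of 11 called by edgeR past both thresholds and 5 higher at an unadjusted p under 0.05. Fibroblast markers, led by Col1a1, were at 484 and 3034 CPM in sense and 3031 and 644 CPM in antisense libraries, and mural cell markers, led by Notch3, at 281 and 469 against 700 and 307 CPM. Macrophage and monocyte markers summed to at most 46.0 CPM, lymphocyte markers to at most 4.94 CPM and granulocyte and mast cell markers to at most 0.726 CPM, with Retnlg at 0 in each sprout library. Their part in the Erbb3 and Hbegf values was not tested.

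**Figure D4:**
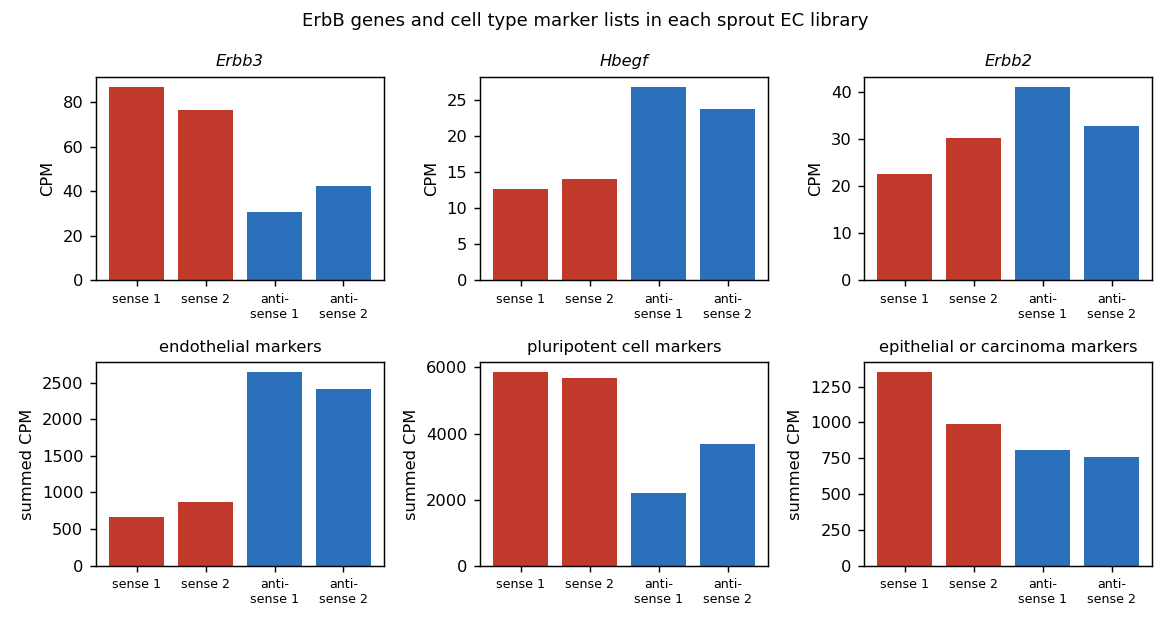
Erbb3, Hbegf and Erbb2 (CPM) and the summed CPM of endothelial, pluripotent, and epithelial or carcinoma markers in each sprout library, with 2 sense (red) and 2 antisense (blue) libraries as bars that start at 0. The endothelial sum is lower in sense (660 and 872 CPM) than in antisense (2643 and 2419 CPM), and Erbb3 and the pluripotent sum are higher in sense.

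Beyond the 10 genes, 118 further genes of the ErbB pathway were counted in 5 lists: neuregulins with Erbb4, ligand shedding and trafficking, adaptors and kinases, negative regulators, and immediate response genes that EGF is known to induce. In sprout ECs 116 of the 118 were fitted, and 3 were lower and 0 higher in the sense libraries past both thresholds, with a median log2 fold change of -0.29 over the 116. The 3 are 2.59% of the pathway genes fitted, a share near the 3.03% of all genes called lower. Without adjustment, 33 were lower (28.4%, beside 14.3% of all genes) and 4 higher (3.45%, beside 12.4% of all genes) at p under 0.05. These shares describe the lists and were not tested. Adam15, a membrane protease of the ADAM family, was at 43.4 and 51.7 CPM in sense and 109 and 103 CPM in antisense libraries (log2 fold change -1.15, SE 0.15, edgeR adjusted p = 0.00807). Gab2, a docking protein below receptor tyrosine kinases, was at 12.5 and 16.6 CPM in sense and 44.7 and 32.2 CPM in antisense libraries (-1.41, SE 0.24, edgeR adjusted p = 0.0189). Phlda1, an immediate response gene, was at 18.9 and 22.8 CPM in sense and 69.8 and 40.4 CPM in antisense libraries (-1.41, SE 0.28, edgeR adjusted p = 0.0401). The count of 3 was 0 with a block by replicate number, though these numbers do not pair the samples. It also moved with 1 library left out, but such fits take their spread from the group with 2 libraries alone. These 3 genes lie on the same side as the endothelial marker sums.

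Of all sprout genes fitted, 49.5% had a negative fold change and 3.03% were called lower. By list, all 13 shedding and trafficking genes had a negative sprout fold change (median -0.29), with 1 called, and 26 of 33 immediate response genes did (median -0.83), with 1 called. The 38 adaptors and kinases split into 19 lower and 19 higher, with 1 called. Of 29 negative regulators, 24 were lower (median -0.21), with 0 called by edgeR or DESeq2 and 8 lower at an unadjusted p under 0.05. Of the neuregulins and Erbb4, 3 of 5 entered the fit, with 0 called by edgeR and 1 lower at an unadjusted p under 0.05. In tumor ECs 113 of the 118 genes were fitted, with 40 lower and 73 higher, a median of 0.16 and 0 called by edgeR, DESeq2 or limma voom, and 3 lower (2.65%, beside 2.94% of all genes) and 8 higher (7.08%, beside 1.87% of all genes) without adjustment at p under 0.05. None of the neuregulins or Erbb4 had enough reads there. Of 33 immediate response genes, 27 had a positive fold change (median 0.41), where 51.9% of all tumor genes had a negative one. Without adjustment, 6 of the 33 were higher (18.2%, beside 1.87% of all genes) and 0 lower at p under 0.05, and these shares were not tested. Fosb, the immediate response transcription factor with the lowest p, was at 186, 894 and 86.3 CPM in the depleted and between 101 and 162 CPM in the wild-type libraries (log2 fold change 1.6, SE 0.49, edgeR adjusted p = 0.906). Ptgs2, which encodes cyclooxygenase-2, was at 1.35, 81.4 and 0.243 CPM in the depleted and between 0 and 4.34 CPM in the wild-type libraries (4.13, SE 1.33, edgeR adjusted p = 0.909). Depleted replicate 2 alone was high in both genes.

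**Figure D5:**
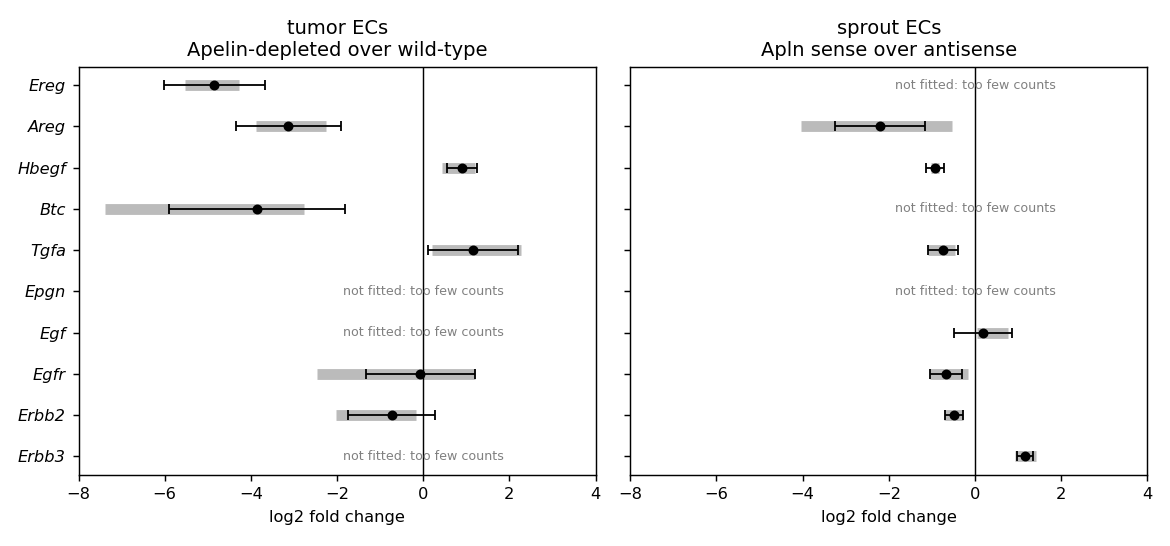
Log2 fold changes of the 10 genes in tumor ECs (Apelin-depleted over wild-type) and sprout ECs (sense over antisense). Black points with bars are the fitted value and its SE, grey bands span the values under the alternative processing, libraries left out included, and genes with too few counts are marked as not fitted; Erbb3 in the sprouts, at 1.16, has a band from 0.94 to 1.41, and the Egfr band in tumor ECs, from -2.46 to 1.2, crosses 0.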

How the data were processed

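Bulk RNA was measured in 9 tumor EC and 4 sprout EC libraries of mouse, and groups were taken from the sample labels, the sprout treatments from the study's legends. For tumor ECs the authors deposited whole-number counts per gene from featureCounts of Subread 1.6.2. The submitters' processing notes name Trim Galore 0.5.0, Bowtie2 2.3.4.1 and SAMtools 1.9 for these, while the study's methods name STAR. For sprout ECs the authors deposited counts of uniquely aligned reads from STAR 2.5.0a and HTSeq 0.6.1p1, and expected counts and TPM from RSEM 1.2.25, with transcript lengths. Reads were aligned to mm10, and the strand setting of the counting is not given in the sources used here. Lines that tally unassigned reads were left out; reads not uniquely aligned were 42.6 to 49.6% of the tallied sprout reads.

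Counts were scaled by TMM and tested in edgeR 4.0.16 (R 4.3.3), with filterByExpr at a minimum count of 10, a robust quasi-likelihood fit and Benjamini-Hochberg adjustment over all genes, in 1 fit for each set of ECs. A gene was called at an adjusted p of 0.05 with an absolute log2 fold change of 1. CPM used TMM library sizes, and CPM per kb the RSEM length. No 2 libraries of a group were alike within counting noise, since chi-square divided by its degrees of freedom was 50.9 to 166 for tumor pairs and 19.2 to 27.5 for sprout pairs. The floor of 3 counts covers counting error only.

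The alternatives were DESeq2 1.42.0, its size factors in edgeR, no filter, a mean of at least 10 counts, no fold-change threshold, a block by replicate number, each library left out, limma 3.58.1 voom (tumor) and rounded RSEM expected counts (sprout). A block with crossed replicate numbers was added after seeing the sprout data. The genes and lists were chosen with earlier results of these data known. Named genes were the 10 genes, Apln, Pecam1 and Eng, the pathway genes past the thresholds (at most 5 with the lowest p per direction, or the 2 with the lowest p where none passed), the most abundant gene of each marker list and genes at 0 throughout, and the 5 genes most like Ereg. Fgf4, a called pluripotent cell marker, was named after its values were seen.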

Additional observations from a re-analysis of the deposited data

Results flagged for a closer look

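In the wild-type tumor ECs, 1 library stood apart from the other 5 for several measures, by a gap to its nearest neighbor that was large against the range of the group. Areg was at 42.7 CPM in replicate 4, with the next library at 16.9 CPM. Egfr was at 31.5 CPM in replicate 2, with the next at 5.92 CPM. Epgn was at 0.364 CPM in replicate 1, from 2 reads, and at 0 in the others. The summed fibroblast markers were at 6188 CPM in replicate 2, with the next at 285 CPM, and the summed macrophage and monocyte markers were at 691 CPM in replicate 4, with the next at 212 CPM. These were 5 of 21 groups of values examined. The critical value of Dixon's test that was used is one that chance passes in about 5% of groups of normally distributed values. The rule was applied to CPM, which need not be so distributed. Epgn, at 0 in the other libraries, had to pass it. No conclusion is therefore drawn from 5 of 21 beside that share. The part of the marker sums in the Areg and Egfr values was not tested.

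Erbb3 differed in opposite directions in the 2 sets of ECs, lower in each depleted tumor library than in each wild-type library (log2 ratio of the mean CPM -2.31) and higher in each sense sprout library (log2 fold change 1.16). This difference was not tested. The tumor value rests on 0 to 2 reads per depleted library, below the floor of 3 counts. Wild-type replicate 1 also had 2 reads, as many as depleted replicate 3, and wild-type replicates 4 and 5 had 3 reads each.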

How the results depend on the processing

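The 14 fold changes of the EGF ligands and receptors kept their sign under the alternatives that could be fitted, Egfr in tumor ECs excepted, which changed sign in 4 of 15. Other tumor ranges were -5.53 to -4.27 (Ereg), -3.89 to -2.27 (Areg), -7.38 to -2.77 (Btc), 0.43 to 1.2 (Hbegf), 0.20 to 2.28 (Tgfa) and -2.02 to -0.17 (Erbb2). In tumor ECs, 1 gene was called, against 116 with DESeq2 (97 lower, 19 higher), 16 without the filter, 2 with the replicate block and 1 to 2 with a library left out. Of the 10 genes 0 were past the thresholds, against 1 with DESeq2 or without the filter and 0 to 0 with a library left out, but the tumor values chose these genes and nothing is read from this count. In sprout ECs, 565 genes were called (441 lower, 124 higher), against 854 without the filter, 44 with the replicate block (41 lower, 3 higher), 905 without the fold threshold (626 lower, 279 higher) and 148 to 887 with a library left out (148 without sense replicate 1, 154 without antisense replicate 1 and 887 without antisense replicate 2). Of the 10 genes 1 was called, against 0 with the replicate block (Erbb3 adjusted p 0.0864, Hbegf 0.153), 2 without the fold threshold and 0 to 1 with a library left out. The 3 pathway calls became 7 with DESeq2, 0 with the replicate block, 5 without the fold threshold and 0 to 18 with a library left out. Same-numbered replicates did not deviate together (correlations -0.0949 to 0.0480 in tumor, -0.377 in sprout ECs), so the numbers do not pair the samples. With crossed numbers in the sprouts, chosen after seeing the data, 1235 genes (933 lower, 302 higher), 1 of the 10 genes and 9 pathway genes were called. Erbb2 then had an edgeR adjusted p of 0.0341 at a log2 fold change of -0.49, short of the fold threshold, against 0.179 in the main fit. A sprout fit with a library left out takes its spread from the group with 2 libraries alone. Over the other sprout alternatives the edgeR or DESeq2 adjusted p of Hbegf ranged from 0.00162 to 0.153 and that of Erbb3 from 6.52e-06 to 0.0864. The cause of these changes was not tested. The filter on low counts left out Epgn, Egf and Erbb3 in tumor ECs and Ereg, Btc and Epgn in sprout ECs.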
